A study of Mus musculus with 12 samples.

Results

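Sphingolipids are membrane and barrier lipids built on a long-chain base. Serine palmitoyltransferase joins serine and a fatty acyl-CoA, ceramide synthases add a second fatty acid whose length depends on the synthase, and dihydroceramide desaturase finishes the ceramide. Ceramide is then turned into sphingomyelin or glucosylceramide, and sphingomyelinases and ceramidases run these steps backwards. In the epidermis this pathway supplies the ceramides of the lipid layers that hold water in the skin.

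The 10 genes described here are 10 of the 14533 genes in the deposited count table, picked by symbol: the serine palmitoyltransferase subunits Sptlc1 and Sptlc2, the ceramide synthases Cers2, Cers4, Cers5 and Cers6, the desaturase Degs1, the sphingomyelin synthase Sgms2, the acid sphingomyelinase Smpd1 and the acid ceramidase Asah1. All 10 were listed, and as each listed gene reached 0.5 CPM in at least 6 of the 12 mice, all 10 passed that filter on low values. mRNA was sequenced from frozen dorsal skin without lesions that had been scraped down to the vessels under the epidermis, so the scrapings hold epidermis and superficial dermis. The mice were C57BL/6 and untreated, and all carried Pparg alleles flanked by loxP sites around exons 1 and 2. The 6 Pparg-/-epi mice (4 female, 2 male) also carried Cre under the keratin 14 promoter, which is active in keratinocytes of the epidermis and its appendages, and the 6 WT mice (3 female, 3 male) were sibling controls without Cre. Both groups were 8 to 13 weeks old by the labels, and each mouse gave 1 library.

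Total counts were 10120840 to 16947632 per WT mouse and 11272135 to 18851255 per Pparg-/-epi mouse, so that 1 count was worth 0.0520 to 0.107 of the CPM printed here. Pparg itself, whose counts are summed over the whole gene and so also hold the shortened transcript left by Cre, had 5 to 269 counts in WT against 16 to 107 in Pparg-/-epi mice (log2 fold change -0.10, adjusted p = 0.949), which does not check the genotypes. Basal keratinocyte markers summed to 8169 to 14630 CPM in WT against 11025 to 15328 CPM in Pparg-/-epi mice, with 1 of 6 higher at an adjusted p under 0.05 and none lower. Suprabasal markers summed to 15559 to 46193 and 23420 to 49380 CPM, with 0 of 6 changed. Dermal and other cells were present in uneven amounts: fibroblast markers summed to 1014 to 34533 CPM in WT against 5324 to 11169 CPM in Pparg-/-epi mice (0 of 6 changed), endothelial markers to 4.97 to 110 and 25.8 to 166 CPM (1 of 6 higher), immune markers to 139 to 542 and 241 to 350 CPM (1 of 6 lower), adipocyte markers to 6.07 to 234 and 14.6 to 180 CPM (0 of 6) and hair shaft markers to 7.41 to 460 and 44.2 to 1141 CPM (0 of 6). WT replicate 2 stood apart, with the highest immune, endothelial, adipocyte and hair shaft sums and the lowest suprabasal sum of the WT mice, and values without it are given beside the genes it moves most. CPM are counts rescaled to library size with TMM factors, given as mean ± SD with n = 6 mice per group. Adjusted p-values come from edgeR's quasi-likelihood test, adjusted by Benjamini-Hochberg across the 14533 genes, and genes with an adjusted p under 0.05 are said to have passed. Altered genes are those that passed and whose log2 fold change was 0.6 or more in either direction.

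Loss of epidermal Pparg went with lower Cers4 and higher Degs1 mRNA, while the other 8 genes did not pass the test. Of the 10 genes, 1 rose (Degs1, where 7.54% of all genes did), 1 fell (Cers4, where 7.84% did) and 8 did not pass, so 2 of 10 passed in either direction where 15.4% of all genes did. Cers4 alone was altered, where 10.3% of all genes were. No member had groups free of overlap, which 7.90% of all genes had. The median log2 fold change was -0.04 over the 10 genes and -0.01 over all genes. These shares are near the background, so the genes did not stand out as a group, and the account that follows is one of single genes and of their proportions. The plot of log2 fold changes shows the 10 estimates with their intervals.

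**Figure D1:**
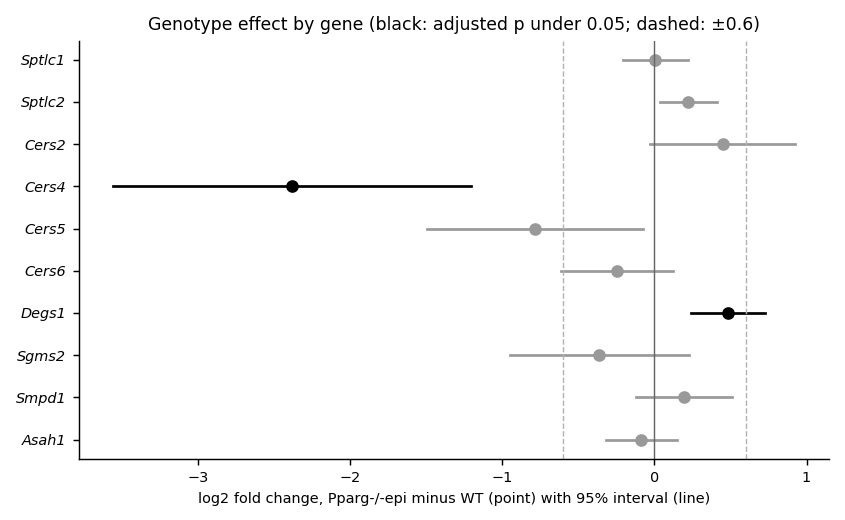
Log2 fold change of each of the 10 genes (x axis, Pparg-/-epi minus WT, log2 scale) with its 95% interval, from 6 WT and 6 Pparg-/-epi mice; black marks an adjusted p under 0.05 and dashed lines mark a log2 fold change of 0.6 in either direction. Cers4 at -2.38 and Degs1 at 0.48 are the only genes in black, and Cers5 lies lower than zero by 0.78 without passing. Each interval is for its gene alone, not adjusted over genes, so those of Cers5 and Sptlc2 exclude zero though neither gene passed.

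Upstream sequence was examined because the deleted protein is a transcription factor: PPARγ pairs with RXR on repeats of the half-site AGGTCA that have 1 base between them. RefSeq promoter windows (GRCm38.p6, the build of the counts) matched 9 of the 10 genes, in 15 windows, and the 250 bases before each start were searched on both strands. The half-site was in 4 of 15 windows, of 3 of these genes (Cers2, Sgms2 and Smpd1), and in 14.0% of all 32851 windows of that length. The repeat, with up to 2 mismatches over its half-sites, was in 2 of 15 windows (1 of Cers2 and 1 of Sgms2) and in 3.24% of all windows. The Sgms2 windows with the half-site are chr3:131489043-131489292 and chr3:131491444-131491693, the latter also holding the repeat. Both lie far upstream of the Sgms2 gene of the counts, which spans 131318986 to 131344923 on the minus strand. Repeat matches were allowed to overlap single half-site matches. Neither Cers4 nor Degs1, the genes that passed the test, had the half-site or the repeat in its window, which says only that these letters are absent from these bases. Shown are the Degs1 window, as the gene that rose, and the Cers2 window with a match, as the synthase whose share rose, each cut back to bases outside annotated exons. In the Cers4 window 221 of the 250 bases lie in exons of other annotated Cers4 transcripts, and it is not printed. Capitals mark the half-site, read here on the opposite strand, from 197 to 192 bases before the start. The Degs1 stretch is chr1:182282225-182282445 on the minus strand, within the first intron of the annotation used for the counts. The Cers2 stretch is chr3:95318580-95318791 on the plus strand, also in an intron of that annotation and before an alternative start.
Degs1: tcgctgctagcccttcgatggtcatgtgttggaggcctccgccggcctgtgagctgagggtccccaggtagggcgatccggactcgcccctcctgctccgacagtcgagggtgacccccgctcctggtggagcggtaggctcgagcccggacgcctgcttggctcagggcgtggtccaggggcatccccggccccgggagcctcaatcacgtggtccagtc
Cers2: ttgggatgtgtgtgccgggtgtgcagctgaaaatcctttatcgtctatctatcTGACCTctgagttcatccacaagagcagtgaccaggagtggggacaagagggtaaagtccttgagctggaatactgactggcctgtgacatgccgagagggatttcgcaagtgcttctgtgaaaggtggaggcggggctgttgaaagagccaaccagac

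Cers4 encodes the ceramide synthase that prefers stearoyl and slightly longer acyl chains, and in mice it is known to be needed for normal sebum and hair follicle cycling. It lies on chromosome 8 from 4493405 to 4526079 (mm10, plus strand, 11 exon blocks, 3668 exonic bases). Its level in WT mice was 120, 106, 15.4, 26.6, 140 and 21.6 CPM in replicates 1 to 6. In Pparg-/-epi mice it was 12.5, 22.8, 13.3, 9.32, 15.6 and 8.85 CPM in replicates 7 to 12. WT replicates 1, 2 and 5 were far above every Pparg-/-epi mouse and replicate 4 slightly so, WT replicates 3 and 6 lay within the Pparg-/-epi range, and 4 of 6 Pparg-/-epi mice were below every WT mouse. Means were 71.6 ± 56.4 and 13.7 ± 5.12 CPM, a log2 fold change of -2.38 (standard error 0.54, 95% interval -3.56 to -1.20, adjusted p = 0.0112). Leaving out each mouse in turn gave log2 fold changes from -2.61 to -2.08, each with an adjusted p under 0.05 (0.00540 to 0.0287). As WT replicates 1, 2 and 5 were high together, leaving out 1 mouse cannot show how far the estimate rests on them. In female mice alone (3 WT, 4 Pparg-/-epi) the log2 fold change was -1.68, which did not pass (adjusted p = 0.117). The library names carry a number after their first dash (192 to 226) whose meaning the labels do not state. Among libraries numbered 222 and above, Cers4 was 15.4 to 140 CPM in 5 WT against 8.85 to 15.6 CPM in 3 Pparg-/-epi mice. Among those of 217 and below it was 120 CPM in the single WT mouse and 12.5 to 22.8 CPM in 3 Pparg-/-epi mice. Number and genotype were partly confounded, as 222 was the only number found in both groups. Of the 75-base stretches of annotated Cers4 transcripts, 7.62% also occur in transcripts of other genes, and multi-mapped reads had been removed.

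The uneven Cers4 level of WT mice ran alongside sebaceous gland genes, as the plot of Cers4 with such genes by mouse shows. It was not particular to them, as fibroblast and endothelial marker sums were also highest in WT replicates 1, 2 and 5. Fibroblast sums there were 34533, 10471 and 8235 CPM, against 1014 to 7331 CPM in the other WT mice. Endothelial sums were 59.5, 110 and 28.9 CPM against 4.97 to 12.0 CPM. Immune, adipocyte, hair shaft, basal and suprabasal sums did not rank these replicates highest. The part of dermal cells was not tested. Fa2h, the fatty acid 2-hydroxylase that makes 2-hydroxy ceramides, was 191, 210, 7.25, 26.0, 181 and 15.2 CPM in WT replicates 1 to 6, high in the same replicates as Cers4. It was 0 to 1.90 CPM in Pparg-/-epi mice, and no WT mouse overlapped them (log2 fold change -7.85 ± 1.12 standard error, adjusted p = 9.15e-04). Within the 6 WT mice the correlation of log2 CPM with Cers4 was 0.988 for Fa2h (Spearman 0.771), 0.973 for Elovl3 (0.829), 0.947 for Mgst1 (0.771), 0.944 for Cidea (0.771) and 0.916 for Awat1 (0.771). It was -0.431 for Dgat2 and -0.697 for Acsbg1. Within the 6 Pparg-/-epi mice it was 0.441 for Fa2h, 0.852 for Elovl3, 0.757 for Mgst1, 0.393 for Cidea and -0.851 for Awat1. It was -0.812 for Dgat2 and -0.637 for Acsbg1 there. Fa2h had 0 to 21 counts and Awat1 0 to 7 in these mice, so their correlations are read near the floor. Genes correlated here were read from the same library of each mouse, so they share its depth and dissection, which differed between mice. These values are a description and carry no test.

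Of 15 sebaceous genes in the list, 13 were in the table, of which 7 fell, 1 rose (Krt79) and 5 did not pass (Elovl3, Plin2, Cidea, Dgat2 and Mgst1). Their sum was 1002 to 3218 CPM in WT against 2574 to 4044 CPM in Pparg-/-epi mice, and it was carried there by Krt79, a keratin also found in the upper hair follicle, at 1850 to 3513 CPM. Awat1, a wax synthase of the gland, was 0.852 to 58.6 CPM in WT against 0 to 0.582 CPM in Pparg-/-epi mice (log2 fold change -6.38, standard error 1.28, adjusted p = 0.00563). Awat1, Fa2h and the desaturase Scd3 were at 0 in at least 1 Pparg-/-epi mouse. The part of these genes, or of the cells that express them, in the Cers4 difference was not tested, and in bulk RNA fewer cells of a type and less RNA per cell cannot be told apart. The genes most like Cers4 over all 12 mice (Pearson of log2 CPM) were Fam57b (0.977, and 0.987 within WT against 0.657 within Pparg-/-epi mice), Acoxl (0.964, 0.984 and 0.827) and Adcy1 (0.957, 0.977 and 0.0397).

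**Figure D2:**
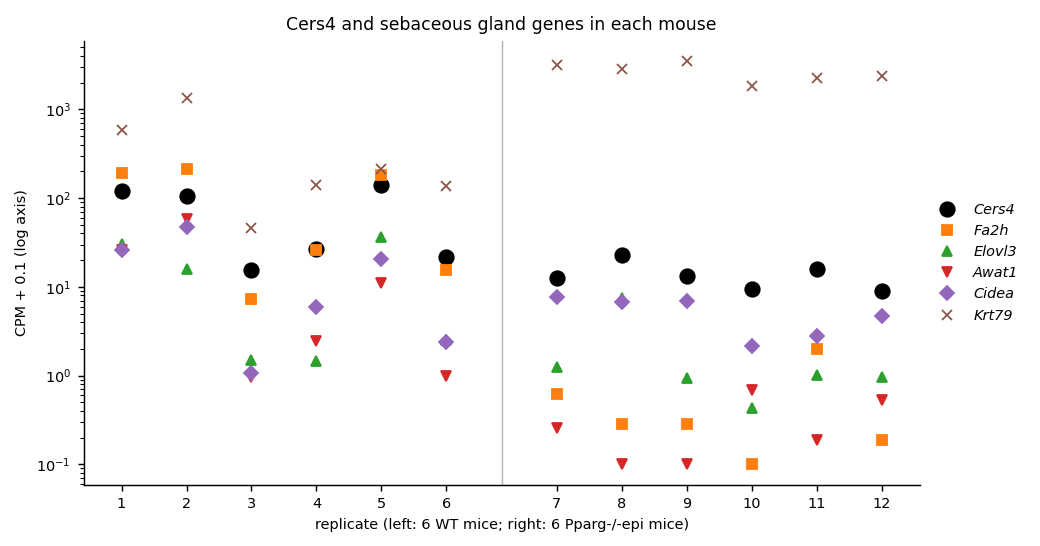
Level of Cers4 and 5 sebaceous gland list genes in each mouse (y axis, CPM plus 0.1, log axis; x axis, replicate, with WT replicates 1 to 6 on the left and Pparg-/-epi replicates 7 to 12 on the right). Cers4, in black, is at 106 to 140 CPM in WT replicates 1, 2 and 5, where Fa2h is at 181 to 210 CPM, and at 8.85 to 22.8 CPM in the Pparg-/-epi mice, where Fa2h is at 1.90 CPM or less and Krt79 at 1850 CPM or more.

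Degs1, the dihydroceramide desaturase that puts the double bond into the sphingoid base, had the highest mean level per length of the 10 transcripts in both groups. Its gene lies on chromosome 1 from 182275770 to 182282759 (minus strand, 3 exon blocks, 2005 exonic bases). It was 77.3 CPM in the lowest WT mouse, 91.0 at the median and 120 in the highest, and 107, 132 and 146 CPM in Pparg-/-epi mice. Of the Pparg-/-epi mice 5 were above every WT mouse, and of the WT mice 5 were below every Pparg-/-epi mouse, so that only WT replicate 3 and Pparg-/-epi replicate 8 crossed. The means were 93.1 ± 15.4 and 130 ± 13.3 CPM, and Degs1 rose by a log2 fold change of 0.48 (standard error 0.11, 95% interval 0.24 to 0.73, adjusted p = 0.0124), short of the size set for an altered gene. Leaving out each mouse gave 0.42 to 0.57, all with an adjusted p under 0.05 (0.00329 to 0.0328). The female mice alone gave 0.65 (adjusted p = 0.0328) and the male mice alone 0.32 (adjusted p = 0.419), and the difference between the sexes was -0.32 (standard error 0.19, adjusted p = 0.895), so no sex difference was shown. In libraries numbered 222 and above, the 5 WT mice were at 77.3 to 120 CPM and the 3 Pparg-/-epi mice at 128 to 135 CPM, without overlap.

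The genes whose pattern was most like that of Degs1 over 12 mice were the stress keratin Krt16 (Pearson 0.958, and 0.935 within WT against 0.832 within Pparg-/-epi mice), the late cornified envelope gene Lce3f (0.953, 0.959 and 0.611) and the stress keratin Krt6b (0.941, 0.942 and 0.782). Krt16 was 53.2 ± 52.3 CPM in WT against 400 ± 132 CPM in Pparg-/-epi mice. Degs2, the desaturase and hydroxylase that makes the phytoceramides of epidermis and gut, was scarcer than Degs1 and rose as well. It was 5.05, 5.68, 0.533, 0.134, 0.316 and 0.441 CPM in WT replicates 1 to 6 (2 to 107 counts) and 6.61 to 23.4 CPM in Pparg-/-epi mice (77 to 449 counts), with no overlap (log2 fold change 2.88 with a standard error of 0.78, adjusted p = 0.0257). Its call was lost when WT replicate 3 or Pparg-/-epi replicate 7, 9 or 11 was left out (adjusted p = 0.0504 to 0.0591). The log2 ratio of Degs1 to Degs2 per length was 7.66 ± 2.27 in WT against 4.05 ± 0.759 in Pparg-/-epi mice (exact permutation test, two-sided, p = 0.0108, adjusted over 4 ratios 0.0216). WT replicates 1 and 2, at 5.09 and 4.60, were below the remaining WT mice at 8.38 to 10.2. They lay within the Pparg-/-epi range of 3.37 to 5.19, so the groups overlapped.

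**Figure D3:**
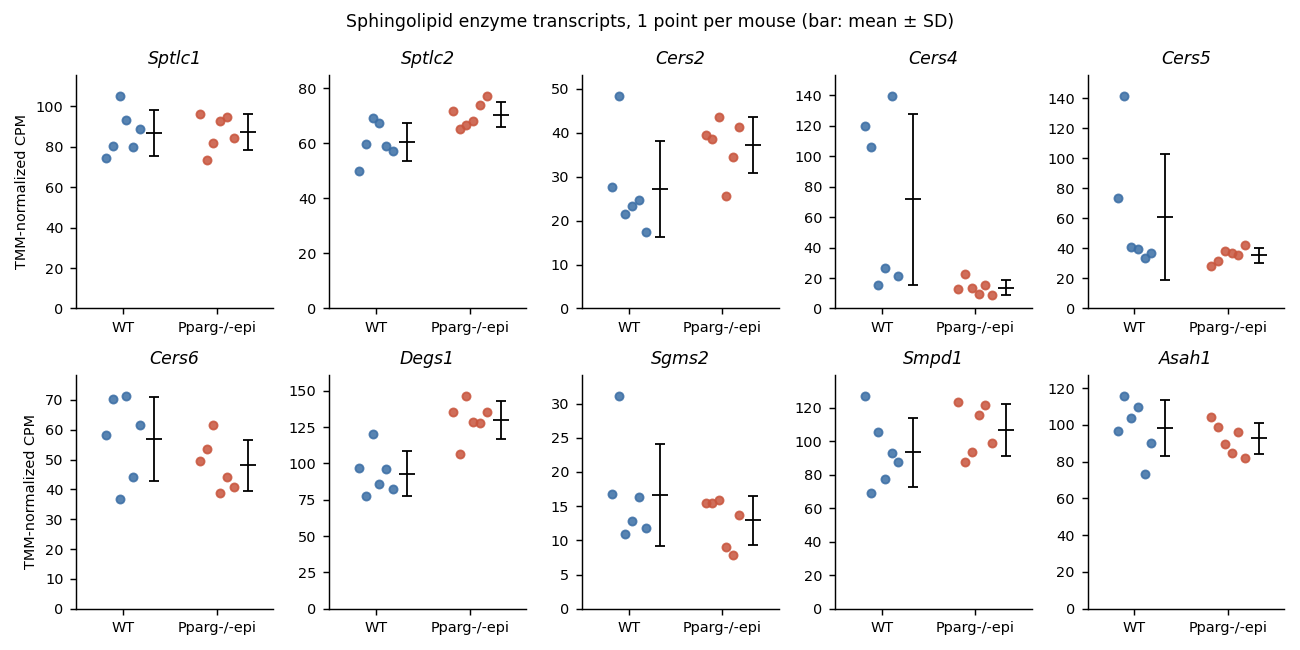
TMM-normalized CPM of the 10 genes (y axis of each panel, starting at 0) in 6 WT and 6 Pparg-/-epi mice, 1 point per mouse, with the group mean and SD beside them. The WT mice spread from 15.4 to 140 CPM in the Cers4 panel and from 33.4 to 141 CPM in the Cers5 panel, while the Degs1 panel shows 5 Pparg-/-epi mice above the WT maximum of 120 CPM.

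The other ceramide synthases did not pass on their own. Cers2, which makes very-long-chain ceramides, was 17.5 CPM in the lowest WT mouse, 24.0 at the median and 48.4 in the highest, and 25.6, 39.0 and 43.5 CPM in Pparg-/-epi mice. The highest value was that of WT replicate 2, and 4 WT mice were below every Pparg-/-epi mouse. The log2 fold change was 0.45 (standard error 0.22, 95% interval -0.03 to 0.93, adjusted p = 0.197), and without WT replicate 2 it was 0.68 with an adjusted p of 0.00598, the single call among the 10 genes that 1 mouse decided. Cers5 and Cers6, which make palmitoyl ceramides, had log2 fold changes of -0.78 (standard error 0.33, adjusted p = 0.130) and -0.25 (standard error 0.17, adjusted p = 0.371). Their 95% intervals, not adjusted over genes, were -1.49 to -0.07 and -0.62 to 0.12. Cers5 was 33.4 to 73.2 CPM in 5 WT mice, 141 CPM in WT replicate 2 and 28.6 to 42.3 CPM in Pparg-/-epi mice, and its log2 fold change without WT replicate 2 was -0.35. Over 12 mice the genes most like Cers2 were Gda, Myo1g and Taok3 (Pearson 0.964, 0.956 and 0.955). The gene most like Cers5 was Acox3 (Pearson 0.929 over 12 mice, but 0.200 within Pparg-/-epi mice). The Spearman correlation of Cers5 with Acox3 over 12 mice was 0.50. Cers6 was 36.7 to 71.3 CPM in WT against 38.7 to 61.5 CPM in Pparg-/-epi mice. Cers3, the epidermal synthase of ultra-long-chain ceramides, was above each of these in mean RPKM (45.9 in WT, 44.01 in Pparg-/-epi mice) and was 149 ± 37.8 and 143 ± 24.7 CPM (log2 fold change -0.06, adjusted p = 0.863).

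The proportions of the synthase transcripts differed between the genotypes, with more Cers2 and less Cers4 in Pparg-/-epi mice. As a share of the summed RPKM of Cers2, Cers4, Cers5 and Cers6 (reads per kilobase of exon, scaled to the library), Cers2 was 14.0 to 24.0% in WT against 29.3 to 39.3% in Pparg-/-epi mice, without overlap. The mean share was 18.2% ± 3.58 and 35.2% ± 3.48, a difference of 17.1 percentage points (two-sided exact permutation test, p = 0.00216, which 6 against 6 mice cannot go below, adjusted over 4 genes 0.00866). Cers4 was 22.9% ± 15.4 in WT against 7.18% ± 2.46 in Pparg-/-epi mice (adjusted p = 0.00866 by the same exact test), with 9.49 to 48.8% against 4.44 to 11.4%. Cers5 was 37.7% ± 9.86 and 34.1% ± 5.59, and Cers6 21.2% ± 8.90 and 23.4% ± 2.59, neither past the exact test (adjusted p = 0.558 for both). The summed level was 77.8 ± 37.0 RPKM in WT against 51.99 ± 5.56 RPKM in Pparg-/-epi mice (exact permutation test, p = 0.123).

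Shares of a sum move together, so that a lower Cers4 raises the others. With Cers4 left out of the sum, a choice made after the shares were seen, Cers2 was 23.9% ± 3.94 in WT against 38.0% ± 3.77 in Pparg-/-epi mice, again without overlap (20.4 to 30.5% against 31.1 to 42.2%, exact permutation test, adjusted p = 0.00649). Cers5 was then 48.9% ± 9.11 and 36.7% ± 5.48 (exact permutation test, adjusted p = 0.0325). With Cers3 added to the 4 synthases, the Cers4 share no longer passed (a difference of -10.8 percentage points, exact permutation test, adjusted p = 0.0595). The Cers2 difference was then smaller, at 8.58 percentage points (10.6% ± 1.91 against 19.2% ± 3.29, exact permutation test, adjusted p = 0.0216). The groups then overlapped in the Cers2 share, at 8.84 to 14.3% in WT against 13.5 to 22.2% in Pparg-/-epi mice. In libraries numbered 222 and above, the Cers2 share was 15.6 to 24.0% in 5 WT against 29.3 to 37.7% in 3 Pparg-/-epi mice. There the Cers5 and Cers6 shares of the 4 synthases differed by 0.87 and -1.06 points. At 217 and below, with a single WT mouse, they differed by -7.72 and 10.4 points.

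**Figure D4:**
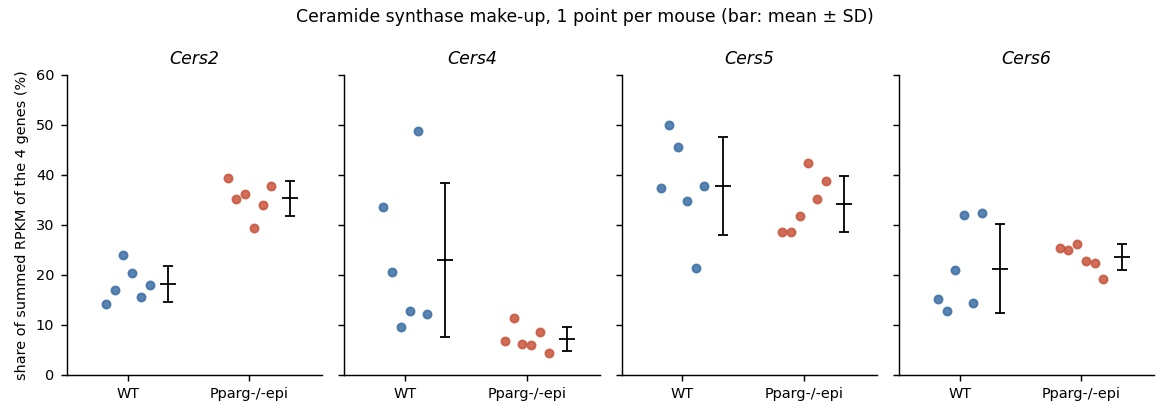
Share of each of 4 ceramide synthases in their summed RPKM (y axis, percent) in 6 WT and 6 Pparg-/-epi mice, 1 point per mouse, with mean and SD. The Cers2 points lie at 14.0 to 24.0% in WT against 29.3 to 39.3% in Pparg-/-epi mice, and the Cers4 points reach 48.8% in WT but 11.4% at most in Pparg-/-epi mice.

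The serine palmitoyltransferase subunits Sptlc1 and Sptlc2, which form the enzyme's core, were steady between mice. Sptlc1 was 87.0 ± 11.3 CPM in WT against 87.3 ± 8.88 CPM in Pparg-/-epi mice, and its log2 fold change was 0.01 with a 95% interval of -0.21 to 0.22 (adjusted p = 0.979). Sptlc2 was 50.05 to 69.2 CPM in WT against 65.2 to 77.3 CPM in Pparg-/-epi mice, with 4 WT mice below every Pparg-/-epi mouse. It did not pass (log2 fold change 0.22 with a standard error of 0.09, adjusted p = 0.104), though its unadjusted 95% interval was 0.04 to 0.41. With the lower and higher library name numbers as a block it did pass, at 0.29 (adjusted p = 0.0399). The log2 ratio of Sptlc2 to Sptlc1 per length was -1.07 ± 0.0899 in WT and -0.85 ± 0.130 in Pparg-/-epi mice (exact permutation test, two-sided, p = 0.00866, adjusted over 4 ratios 0.0216), with overlap between -0.99 and -0.97. Sptlc3, a subunit that shifts the enzyme to other acyl lengths, fell from 186 ± 55.4 to 98.4 ± 22.4 CPM (log2 fold change -0.92, standard error 0.22, adjusted p = 0.0131).

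Of the genes that use or release ceramide, Sgms2, a sphingomyelin synthase of the plasma membrane, was the scarcest member. It was 11.0 to 31.1 CPM in WT against 7.87 to 15.9 CPM in Pparg-/-epi mice (log2 fold change -0.36, standard error 0.27, adjusted p = 0.412), and without WT replicate 2, its highest mouse, the log2 fold change was -0.10. Smpd1, the lysosomal sphingomyelinase that also makes barrier ceramides in the stratum corneum, was 93.4 ± 20.8 and 107 ± 15.4 CPM (log2 fold change 0.20, 95% interval -0.12 to 0.51, adjusted p = 0.411). Asah1, the lysosomal ceramidase, was 98.2 ± 15.2 and 92.6 ± 8.55 CPM (log2 fold change -0.09, 95% interval -0.32 to 0.15, adjusted p = 0.659). The intervals of these genes, and that of Sptlc1, exclude changes as large as that of Cers4. The log2 ratios of Sgms2 to Smpd1 and of Asah1 to Smpd1 differed by -0.53 and -0.29 between the groups, and neither passed (exact permutation test, adjusted p = 0.214 for both). Without WT replicate 2 these differences were -0.25 and -0.16, and the log2 fold change of Smpd1 was 0.11. Among libraries numbered 222 and above, mean Smpd1 was 86.6 CPM in 5 WT against 112 CPM in 3 Pparg-/-epi mice. At 217 and below the direction was the other way, with 127 CPM in the single WT mouse against 102 CPM in 3 Pparg-/-epi mice. The 2 ratio differences were -1.01 and -0.54 at 222 and above, but 0.24 and 0.35 at 217 and below.

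Per length, WT levels ran from Degs1 at 46.4 ± 7.70 RPKM through Asah1 (43.6 ± 6.74), Smpd1 (38.7 ± 8.64), Sptlc1 (33.8 ± 4.38), Cers5 (30.3 ± 20.9), Cers4 (19.5 ± 15.4), Sptlc2 (16.1 ± 1.86), Cers6 (14.5 ± 3.57) and Cers2 (13.5 ± 5.42) to Sgms2 at 2.87 ± 1.29 RPKM. Only the last step, from Cers2 to Sgms2, held in all 6 WT mice, and the other neighbours held their order in 2 to 5 mice. In Pparg-/-epi mice the order was Degs1 at 64.8 ± 6.62, Smpd1 (44.3 ± 6.37), Asah1 (41.1 ± 3.80), Sptlc1 (34.0 ± 3.45), Sptlc2 (18.8 ± 1.23), Cers2 (18.4 ± 3.19), Cers5 (17.6 ± 2.45), Cers6 (12.2 ± 2.18), Cers4 (3.74 ± 1.40) and Sgms2 (2.23 ± 0.618 RPKM). There 6 of 9 steps held in all 6 mice, and the steps from Smpd1 to Asah1, Sptlc2 to Cers2 and Cers2 to Cers5 did not. The spread between mice was wider in WT for each of the 10 genes, from a coefficient of variation of 11.6% for Sptlc2 to 78.7% for Cers4 in WT and from 6.54% for Sptlc2 to 37.3% for Cers4 in Pparg-/-epi mice. The 45 pairs of members had a median correlation of 0.0489 over 12 mice, with a range from -0.808 (Sptlc2 with Cers4) to 0.681 (Sptlc2 with Degs1), given as a description.

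Of 47 further sphingolipid genes, 45 were listed (Sptssb and Cers1 were not among the 14533 genes). In this wider list 6 rose, 8 fell and 31 did not pass (31.1% passed and 22.2% were altered, against 15.4% and 10.3% of all genes), with a median log2 fold change of -0.04. The plot of other sphingolipid genes gives each estimate. Among 8 listed genes of synthesis, Degs2 rose and Sptlc3, Fa2h and Kdsr, which reduces the first intermediate, fell. Among 7 sphingomyelin genes, Smpd3, the neutral sphingomyelinase, rose from 87.2 ± 20.6 to 151 ± 35.4 CPM (log2 fold change 0.79, adjusted p = 0.00936), and Smpdl3b rose from 4.24 ± 3.01 to 12.7 ± 1.74 CPM (1.58, adjusted p = 0.00936). Smpdl3a rose by 0.48 (adjusted p = 0.0481), a call that did not hold with total counts in place of TMM (0.0552) or with sex (0.0556) or RIN (0.0813) as a covariate, while Sgms1, the Golgi sphingomyelin synthase, fell (log2 fold change -0.63, adjusted p = 0.0110), whereas the members Sgms2 and Smpd1 did not pass.

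Among 10 ceramidase and sphingosine phosphate genes, the alkaline ceramidase Acer3 fell from 170 ± 58.8 to 79.0 ± 23.4 CPM (log2 fold change -1.10, adjusted p = 0.0104) and the sphingosine kinase Sphk2 also fell (-0.50, adjusted p = 0.00587). Acer1, the epidermal alkaline ceramidase, was 296 ± 110 and 205 ± 65.9 CPM and did not pass (-0.53, adjusted p = 0.220). Among 14 glycosphingolipid genes, the lysosomal sulfatase Arsa and the beta-galactosidase Glb1 fell (log2 fold changes -1.24 and -0.77, adjusted p = 0.00148 and 0.00206), and the GM2 activator Gm2a and Gba2 rose (0.70 and 0.58, adjusted p = 0.0109 and 0.0267). Glb1 was 28.8 to 45.8 CPM in WT against 17.7 to 26.6 CPM in Pparg-/-epi mice, without overlap. The glucosylceramide synthase Ugcg had a log2 fold change of 0.03, with a 95% interval of -0.37 to 0.42 (adjusted p = 0.943). None of 6 transfer and kinase genes passed.

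**Figure D5:**
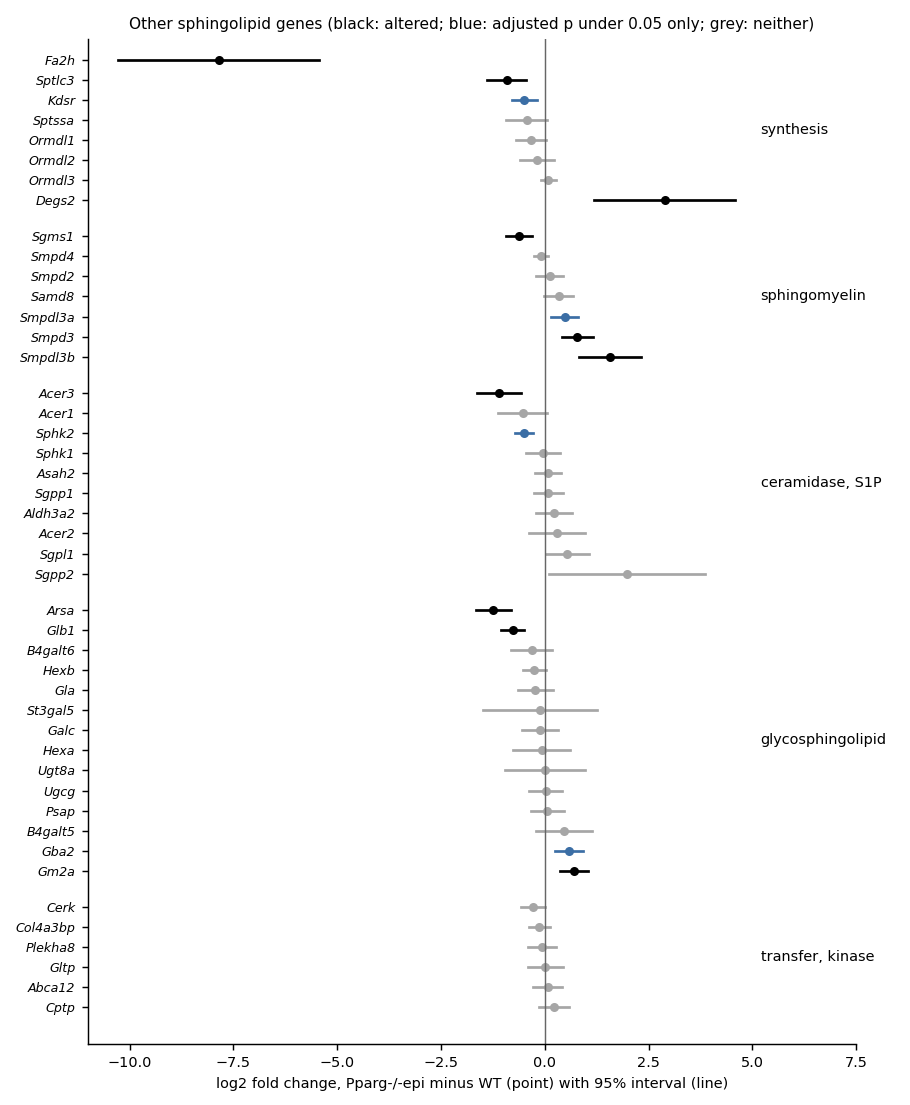
Log2 fold change (x axis, Pparg-/-epi minus WT) with 95% interval of 45 further sphingolipid genes, grouped by step; black marks altered genes, blue those with an adjusted p under 0.05 only and grey the rest, from 6 mice per group. Fa2h at -7.85 and Degs2 at 2.88 lie farthest from zero among the genes that passed, and the 6 transfer and kinase genes are all grey. The intervals are not adjusted over genes.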

How the data were processed

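Epidermal scrapings of 12 mice were sequenced as poly(A) mRNA, 1 library per mouse. The authors aligned reads to mm10 with STAR 2.5.2b, removed multi-mapped reads and counted reads per gene with featureCounts (Subread 1.5.1), and deposited these raw counts with exon lengths. The strand setting of the counting is not given in the sources used here. The table has 14533 genes, after 2800 blank rows were dropped, and each exceeds 0.5 CPM in 6 mice or more, so low counts were not filtered again. Total counts were 10120840 to 18851255. No libraries of a group agreed within sampling noise (lowest mean chi-square per gene 11.0).

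Counts were normalized with TMM and compared with edgeR 4.0.16 (quasi-likelihood test, R 4.3.3), genotype as the only term. The likelihood ratio test that the study's methods name, DESeq2 1.42.0, other scalings, a minimum of 10 counts, covariates (sex, RIN, age, library name number), female mice alone and leaving out each mouse were alternatives. RPKM used the deposited exon lengths. Shares and ratios were compared with exact permutation tests (scipy 1.17.1), without RIN or other covariates. Cers2 shares 44 exonic bases (2.18%) with Setdb1 on the other strand, and 0.737% of its 75-base stretches occur in other genes' transcripts. For the 8 members other than Cers2 and Cers4 that was 0. Promoter windows are from RefSeq (GRCm38.p6). Asah1 had none.

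The genes named are the 10 members, further sphingolipid genes that were altered or listed as reference (Degs2, Sptlc3, Ugcg, Smpd3, Acer1, Fa2h), the 3 genes most like a member, and marker genes. One further gene of the pathway is not reported here. Kdsr, Smpdl3a, Sphk2 and Gba2, which passed without being altered, were named after their values were seen. The members and lists were chosen with earlier results of these data known. P-values weigh a difference against the spread between these mice.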

Additional observations from a re-analysis of the deposited data

Results flagged for a closer look

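In 7 of the 60 groups of 6 mice examined, 1 mouse lay so far from the nearest other that the gap exceeded Dixon's critical value of 0.625 of the group's range. That value is set for about 1 in 20 independent normal samples. The groups here come from the same libraries and mostly hold untransformed CPM, so 7 of 60 cannot be weighed against that rate. Of these 7, 6 were in WT, and 5 were WT replicate 2. That mouse was the highest WT mouse for Cers2 (48.4 CPM), Cers5 (141 CPM), Sgms2 (31.1 CPM), Smpdl3b (10.1 CPM) and the log2 ratio of Sgms2 to Smpd1 (-2.41). WT replicate 1 was the highest WT mouse for Smpd3 (127 CPM), and Pparg-/-epi replicate 11 the highest of its group for Fa2h (1.90 CPM). WT replicate 2 also had the highest immune (542 CPM), endothelial (110 CPM), adipocyte (234 CPM) and hair shaft (460 CPM) marker sums and the lowest suprabasal sum (15559 CPM) of the WT mice. The part of these cells in its values was not tested.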

How the results depend on the processing

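No paired analysis was possible because the labels number the WT mice 1 to 6 and the Pparg-/-epi mice 7 to 12, so the groups share no replicate number. Of the numbers in the library names 222 alone occurs in both groups (WT replicate 2 and Pparg-/-epi replicate 10), too few for a paired fit. Leaving out each mouse gave 1116 to 2249 altered genes (1493 with all mice, 2249 without WT replicate 2), 1 to 2 altered members, 2 to 3 members past the test, and 8 to 14 altered and 10 to 20 passing genes of the wider sphingolipid list. The log2 fold change of Sptlc1, 0.01 with all mice, ranged from -0.046 to 0.068, turning negative without WT replicate 1, 2 or 5 or Pparg-/-epi replicate 7, 10 or 11, and it was -0.018 in female mice alone, always without passing. In female mice alone (3 WT, 4 Pparg-/-epi), 651 genes were altered, 1 member passed (Degs1), and 3 genes of the wider list were altered and 3 passed. There the exact permutation tests cannot go below p = 0.0571, and the shares of Cers2 (17.7 points) and Cers4 (-6.96 points) and the log2 ratios of Sptlc2 to Sptlc1 (0.20) and Degs1 to Degs2 (-4.11) kept their direction without passing, while the Cers6 share turned to -0.93 points. With Cers3 in the sum the Cers4 share differed by -10.8 points and did not pass, and the Cers2 share differed by 8.58 points and passed, with overlap between the groups. With Cers4 left out, added after seeing the data, the Cers5 share passed at -12.2 points and the Cers6 share turned to -1.92 points. The cause of these changes was not tested. Leaving out each mouse kept the share differences of Cers2 at 16.3 to 18.3 points and of Cers4 at -18.4 to -10.5 points, past the test each time, and the ratio differences at 0.18 to 0.25 (Sptlc2 to Sptlc1) and -4.23 to -3.12 (Degs1 to Degs2). Over the 10 settings that change the test, scaling, filter, covariates or sex, the log2 fold change of Cers4 was -2.59 to -1.68 and that of Degs1 0.48 to 0.65. The genotype effect differed between the sexes in 0 genes with edgeR's quasi-likelihood test (741 at an unadjusted p under 0.05) and in 4 with its likelihood ratio test (BC100530, Krt16, Krt6b and Tagap1, named after their values were seen). Of 335 fold changes, shares and ratios under an alternative, 317 kept their direction and side of the threshold, and of 123 counts of genes 116 stayed within 1.5 times the reported count. In the wider sphingolipid list, leaving out each mouse in turn (12 fits) kept the calls of Smpdl3a in 3 fits, Kdsr in 6, Gba2 in 7 and Degs2 in 8, and those of the other 10 genes in all 12. In female mice alone Fa2h, Acer3 and Arsa passed. With 3 WT male and 2 Pparg-/-epi male mice, sex differences smaller than the spread between mice were not detectable.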
